A study of Mus musculus with 18 samples.

Results

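The comparison described here sets cells that received any of 4 guide RNAs against Jmjd1c beside mock cells, for every expressed gene. It takes 15 of the 18 libraries of the series: 3 libraries from each of 4 guides (e21.1, e20.1, e12.4, and e12.3; every guide weighted 0.25) and 3 mock libraries. The remaining 3 libraries, from cells with a control guide against Renilla luciferase, served as a second control. All 6 groups are cultured mouse leukaemia cells from a primary leukaemia driven by the MLL-AF9 fusion and expressing Cas9, and all grew with mouse interleukin-3. The labels place the guides in the jumonji and zinc finger regions of Jmjd1c but do not say which guide cuts which, what the mock cells received, or whether replicate libraries came from separate cultures. The p-values therefore measure only the spread between these libraries. The cells are bulk cultures, in which a change in the share of cells of one kind and a change in RNA per cell cannot be told apart.

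Jmjd1c is a nuclear protein of the jumonji family, whose relatives Kdm3a and Kdm3b remove methyl groups from lysine 9 of histone H3. MLL fusions hold myeloid cells at an immature stage by keeping genes such as Hoxa9 and Meis1 active, and interleukin-3 signals through JAK2, STAT5 and RAS to keep such cells dividing. Granulocyte-monocyte progenitors make granule proteases and myeloperoxidase, and change to lysosomal, phagocytic and inflammatory genes when they mature toward monocytes or neutrophils.

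The 3 mock libraries were more alike than the Renilla libraries: the median gene had a standard deviation of 0.157 within Renilla and 0.0998 within mock on the log2(FPKM + 1) scale, where FPKM are fragment counts scaled to transcript length and library size. Depth, estimated from the steps of the FPKM values, was 30.8 to 38.5 M reads in Renilla and 182, 32.3 and 20.7 M reads in mock replicates 1, 2 and 3, so that replicate 1 was the only mock library deeper than Renilla, and replicate 3 was the shallowest of all 18. Guide libraries held 22.8 to 75.3 M reads. The myeloid genes Ptprc, Spi1, Cebpa, Kit, Mpo, Elane, Csf2rb and Itgam were present in every library, whereas Cd3e, Hba-a1, Col1a1, Epcam and Alb reached at most 0.536 FPKM and the platelet gene Pf4 at most 1.8 FPKM. On principal component 2, which held 21.9% of the variance, 2 guide libraries stood apart, with -49.9 for e21.1 replicate 3 and -41.1 for e12.3 replicate 3, while every other library scored above 0. Component 3 (13.6%) set apart e20.1 replicate 2 and Renilla replicate 1, at 33.6 and 34.3, with every other library between -12.5 and 6.3. On component 1 (26.2%), e12.3 replicate 3 at -21.6 lay among the mock libraries (-21.7 to -19.5). Counts below are also given without e21.1 replicate 3 and e12.3 replicate 3, called the 2 outlying libraries, where that moves them by more than 1.5 times.

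Jmjd1c itself (ENSMUSG00000037876.17, GRCm38 chromosome 10, 67096125 to 67256326, plus strand) stood at 42.2 to 74.4 FPKM over the 12 guide libraries, with a median of 65.0, and at 71.8, 77.1 and 74.5 FPKM in mock. In 9 of 12 guide libraries the level was below every mock library, and the 2 groups overlapped in the others. The lowest, 42.2 FPKM, was in e20.1 replicate 2. The difference of -0.23 on the log2 scale (SE 0.13, 95% interval -0.51 to 0.05) did not pass the test across all genes (limma adjusted p = 0.35), nor did an exact two-sided permutation test over 455 arrangements (p = 0.11). With both controls together, the exact permutation over 18564 arrangements gave p = 0.0187 for a difference of -0.26. Transcript level does not measure cutting of the gene. The relatives Kdm3a (28 ± 5.31 FPKM in guide libraries and 29.8 ± 3.96 FPKM in mock) and Kdm3b (29.2 ± 3.63 and 34.3 ± 4.47 FPKM) were not called.

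Of 23899 genes in the table, 11550 reached a mean FPKM of 1 or more and were tested, and 1040 of them differed between guides and mock at a limma adjusted p under 0.05 (9.0% of the genes tested). Of these, 790 were higher with the guides (6.84%) and 250 were lower (2.16%); a change of 2-fold or more was seen in 225 higher genes and 10 lower genes. All 12 guide libraries lay above all 3 mock libraries for 753 genes (6.52%) and below them for 394 genes (3.41%), and 800 of the called genes had no overlap between the groups. The count fell to 649, 580 and 589 genes without mock replicate 1, 2 or 3, and was 1878 (1149 higher, 729 lower) without the 2 outlying libraries. Against the same mock libraries e12.3 alone gave 326 higher genes (2.82%) and 14 lower genes (0.121%), and e12.4 gave 603 (5.22%) and 145 (1.26%). With e20.1 the counts were 509 higher (4.41%) and 105 lower (0.909%), and with e21.1 683 higher (5.91%) and 156 lower (1.35%). A moderated F-test found no gene that differed among the 4 guides at an adjusted p under 0.05. At an unadjusted p under 0.05 it gave 238 genes, where 578 would be called by that threshold if no gene differed. The filter took the mean over all 18 libraries, 12 of them guide libraries. Genes under 1 FPKM in both controls could thus pass through the guides alone, as Egr1, Il2ra, Bmf and Irf7 did. This favoured higher calls, in the lists below as over all genes.

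The genes with the largest log2 increases by the naming rule included several known from mature myeloid cells. Ctss, which encodes the lysosomal protease cathepsin S of antigen-presenting cells, stood at 27.3 to 76.6 FPKM in the 12 guide libraries (median 49.2), against 4.02, 3.11 and 2.91 FPKM in mock. The lowest guide library was thus far above the highest mock library, and the log2 difference was 3.55 (SE 0.16, limma adjusted p = 7.8e-09), a 15.3-fold ratio of mean FPKM. Lsp1, an actin-binding protein of leukocytes, stood at 27.0 to 72.3 FPKM (median 48.2) with the guides and at 3.29, 3.70 and 3.14 FPKM in mock, a log2 difference of 3.39 (SE 0.17, adjusted p = 8.3e-09). Wfdc17, a secreted protein of activated macrophages, ranged between 65.7 and 417 FPKM (median 278) with the guides and was at 23.1, 23.7 and 19.2 FPKM in mock (log2 difference 3.46, SE 0.31, adjusted p = 2.1e-06). The naming rule took only genes whose groups did not overlap, so the lack of overlap of these genes is not a result. The chemokine gene Ccl3 (MIP-1 alpha) averaged 68.8 ± 17.5 FPKM with the guides and 7.41 ± 1.08 FPKM in mock (SD, n = 12 and 3), and Slfn2, a schlafen gene linked to the quiescence of leukocytes, averaged 32.0 ± 7.84 and 4.21 ± 0.159 FPKM. Their log2 differences were 3.01 (SE 0.19, adjusted p = 6.5e-08) and 2.62 (SE 0.19, adjusted p = 2.3e-07). On this scale the change of genes near 1 FPKM is understated.

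**Figure D1:**
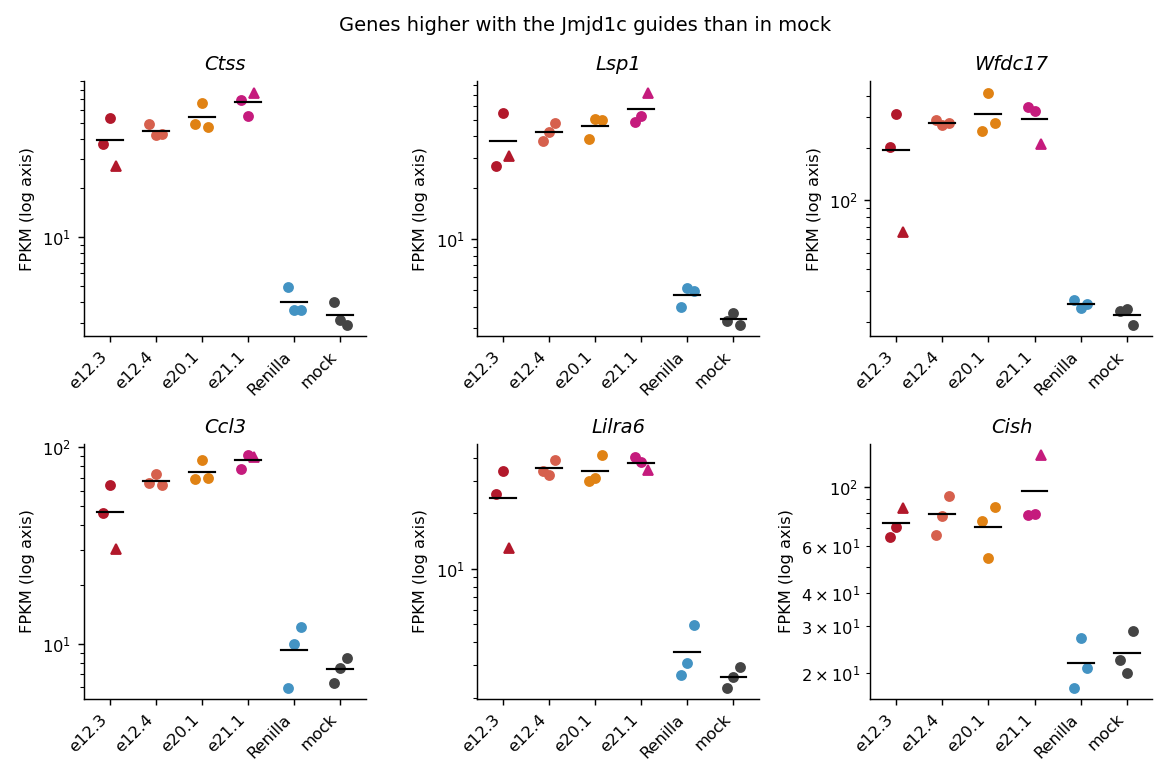
FPKM (log axis) of 6 genes that rose, with 1 point per library, bars at group means and triangles for the 2 outlying libraries. Every guide library lies above every mock and Renilla library in all 6 panels. The naming rule required this against mock for all genes but Cish, and not against Renilla. Ctss reaches at least 27.3 FPKM with the guides and at most 4.97 FPKM in Renilla and 4.02 FPKM in mock.

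In a list of paired immunoglobulin-like and related receptors of myeloid cells, 13 of 18 tested genes were higher, 5 were not called and none was lower (72.2% called, beside 9.0% over all genes), with a median log2 difference of 1.29 beside -0.02 over all genes tested. Lilra6, an activating receptor, averaged 32.6 ± 7.67 FPKM with the guides and 2.60 ± 0.33 FPKM in mock (log2 difference 3.18, SE 0.20, adjusted p = 7.1e-08). Pira2, of the same activating family, differed by 2.80 (21.6 ± 5.84 and 2.12 ± 0.366 FPKM), and Lilr4b and Lilrb4a differed by 2.67 and 2.66, with 68.0 ± 23.4 and 140 ± 41.6 FPKM with the guides against 9.34 ± 2.51 and 20.6 ± 5.67 FPKM in mock. Pirb, an inhibitory receptor gene, averaged 29.9 ± 9.18 FPKM with the guides and 4.39 ± 1.05 FPKM in mock. These genes include close paralogs, between which short reads can be split, so their single values are uncertain. Cd300lf and Cd300lb, which encode receptors of the CD300 family, differed by 1.83 (SE 0.19, adjusted p = 1.2e-05) and 1.61 (SE 0.13, adjusted p = 8.8e-07). Against Renilla, a comparison that shares the guide libraries, 14 of the 18 were higher, with a median of 1.23.

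Monocyte and macrophage genes were higher in 14 of 20 tested members and lower in none (70% called, beside 9.0% over all genes). The list's median log2 difference was 1.09. Irf8, the transcription factor that directs progenitors toward monocytes, stood at 28.1 to 97.4 FPKM (median 39.2) with the guides and at 7.47, 9.82 and 7.48 FPKM in mock. Csf1r, which encodes the M-CSF receptor, stood at 5.72 to 16.2 FPKM (median 11.7) with the guides and at 1.84, 2.07 and 2.06 FPKM in mock. Guide and mock libraries were apart for both genes, which differed by 2.20 (SE 0.19, adjusted p = 1.8e-06) and 2.06 (SE 0.17, adjusted p = 1.2e-06). The pattern receptor genes Tlr2 (8.58 ± 1.93 FPKM with the guides and 1.92 ± 0.207 FPKM in mock) and Clec7a (43.1 ± 10.1 and 7.09 ± 0.809 FPKM), the lysozyme gene Lyz2 (247 ± 53.5 and 102 ± 1.53 FPKM) and the scavenger receptor gene Cd68 (24.0 ± 4.85 and 8.93 ± 1.37 FPKM) also rose. Not all members did: Cd14, Tlr4, Fcgr1, Ccr2 and Ms4a6c had log2 differences between -0.37 and 0.40 and were not called. By library, the list's median was 0.83 to 1.43 in the guide libraries other than e12.3 replicate 3, where it was 0.32, and lay between -0.03 and 0.03 in mock.

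Late neutrophil genes were higher in 8 of 17 members and lower in none (47.1% called, beside 9.0% over all genes). Their median was 0.94. Mmp8, the neutrophil collagenase gene, stood at 1.52 to 7.16 FPKM (median 3.95) with the guides and at 0.247, 0.156 and 0.121 FPKM in mock, a log2 difference of 2.05 (SE 0.18, adjusted p = 2.2e-06). The haptoglobin gene Hp stood at 358 to 839 FPKM (median 615) with the guides and at 308, 299 and 302 FPKM in mock, a difference of 0.94 (SE 0.16, adjusted p = 9.4e-04). The groups were apart for both. The alarmin gene S100a8, with a median of 101 FPKM with the guides and 39.4 ± 3.31 FPKM in mock, was not called, nor was Lcn2 (lipocalin 2), at 12.2 ± 10.1 and 3.77 ± 0.911 FPKM, with adjusted p = 0.10 and 0.099. Their highest values, 283 and 39.5 FPKM, were both in e12.3 replicate 3. The list's count of 8 fell to 3, 4 and 4 without mock replicate 1, 2 or 3.

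Genes of the primary granules, which form at the promyelocyte stage, went the other way. Of 14 tested members 5 were lower, Mpo, Ms4a3, Ctsg, Prtn3 and Nkg7, and 1 was higher, Cst7, which encodes the protease inhibitor cystatin F. These made 42.9% of the list, beside 9.0% called over all genes. Mpo (myeloperoxidase) stood at 133 to 1020 FPKM with the guides (median 292) and at 1250, 1160 and 1120 FPKM in mock. Every guide library was below every mock library, but the spread was wide: e12.3 replicate 3 was at 1020 FPKM and e21.1 replicate 3 at 664, and the other 10 lay between 133 and 384 FPKM. The log2 difference was -2.06 (SE 0.35, adjusted p = 0.0011). Ms4a3, a tetraspan protein of early granulocytic cells, stood at 66.5 to 214 FPKM (median 147) with the guides and at 415, 363 and 372 FPKM in mock (log2 difference -1.32, SE 0.19, adjusted p = 2.9e-04), and here e21.1 replicate 3 was the lowest library. The serine protease genes Ctsg (437 ± 122 FPKM with the guides and 828 ± 93.4 FPKM in mock) and Prtn3 (832 ± 198 and 1350 ± 55.5 FPKM) differed by -0.96 (adjusted p = 0.0028) and -0.73 (adjusted p = 0.0075), and the call of Prtn3 was lost without mock replicate 3 (adjusted p = 0.058). The neutrophil elastase gene Elane was not called (792 ± 465 FPKM with the guides and 1200 ± 11.5 FPKM in mock, adjusted p = 0.18): e21.1 replicate 3 and e12.3 replicate 3 stood at 1440 and 2010 FPKM, and the other 10 guide libraries between 462 and 862 FPKM. Without these 2, 9 members of the list were lower, and without mock replicate 3 only 3.

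**Figure D2:**
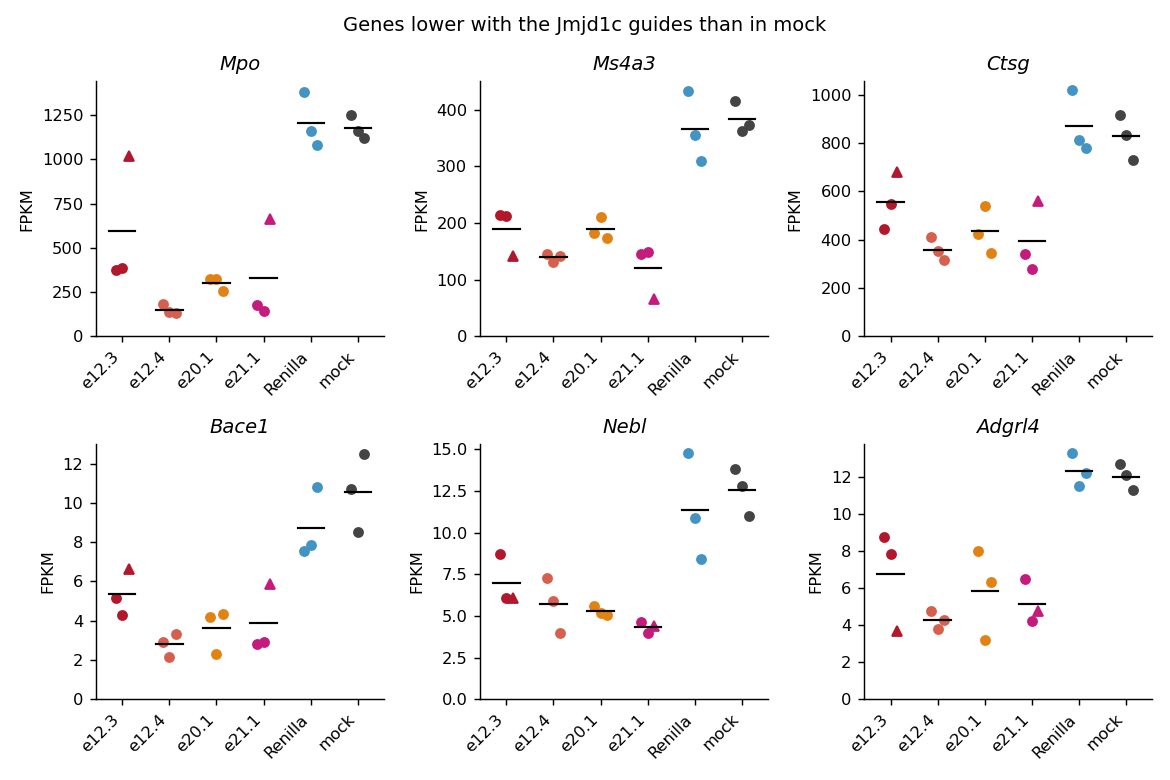
FPKM of 6 genes that fell, with 1 point per library, bars at group means and triangles for the 2 outlying libraries. Every guide library lies below every mock library, which the naming rule required of these genes. For Mpo the triangles, at 1020 and 664 FPKM, are the guide libraries nearest to mock.

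Outside the granule list, the genes that fell most were of varied function. Nebl, which encodes the actin-binding protein nebulette, averaged 5.57 ± 1.38 FPKM with the guides and 12.5 ± 1.45 FPKM in mock (log2 difference -1.06, SE 0.15, adjusted p = 2.7e-04). Bace1, the beta-secretase gene, averaged 3.91 ± 1.43 and 10.6 ± 1.99 FPKM (-1.28, SE 0.20, adjusted p = 4.1e-04). Ppic (cyclophilin C) differed by -1.04 (SE 0.12, adjusted p = 1.9e-05), Adgrl4, an adhesion receptor gene, by -1.05, and Sipa1l1, a regulator of RAP GTPases, by -0.80, whose call was lost without mock replicate 1 or 3 (adjusted p = 0.069 and 0.052). The lectin gene Mgl2 stood at 0.854 to 18.7 FPKM (median 13.1) with the guides and at 40, 35.9 and 38.7 FPKM in mock. Its groups were far apart, yet its difference of -1.86 had an SE of 0.52 (adjusted p = 0.036), with 0.854 FPKM in e21.1 replicate 3 and 2.31 FPKM in e12.3 replicate 3, and its call was lost under 10 alternatives, among them leaving out each mock library (adjusted p = 0.14, 0.13 and 0.14).

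Genes of the interleukin-3 receptor and of STAT5 signalling rose in 13 of 24 members (54.2% called, beside 9.0% over all genes), with none lower. Their median was 0.45, although interleukin-3 was in the medium of every group. Among receptor subunits, Csf2rb, the shared beta chain, stood at 72.0 to 136 FPKM (median 110) with the guides and at 45.6, 51.4 and 47.8 FPKM in mock (log2 difference 1.14, SE 0.14, adjusted p = 4.7e-05). Csf2rb2, the beta chain specific to interleukin-3 in mouse, averaged 17.5 ± 3.83 FPKM with the guides and 5.77 ± 0.334 FPKM in mock, a difference of 1.42 (SE 0.17, adjusted p = 4.5e-05). The 2 chains are near-identical copies, so their reads can be split. The alpha chain gene Il3ra (0.38), and Stat5a (-0.15), Stat5b (0.21), Jak1 (0.22) and Jak2 (0.41), given as log2 differences, were not called. Among targets, Cish, a STAT5-induced feedback inhibitor, stood at 54.2 to 132 FPKM (median 78.3) with the guides and at 22.4, 20.0 and 28.7 FPKM in mock, with no overlap and a difference of 1.70 (SE 0.18, adjusted p = 1.0e-05). The cytokine gene Osm (19.4 ± 4.61 FPKM with the guides and 5.22 ± 0.381 FPKM in mock) and the interleukin-2 receptor gene Il2ra (1.82 ± 0.508 and 0.230 ± 0.0503 FPKM) differed by 1.68 and 1.18, and the feedback inhibitors Socs1, Socs2 and Socs3 were called as well. Pim1 (0.20), Bcl2l1 (0.15) and Ccnd2 (-0.15) were not.

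RAS-MAPK and immediate-early genes were higher in 13 of 21 members and lower in none (61.9% called, beside 9.0% over all genes). Their median was 0.82. The transcription factor gene Egr1 stood at 4.41 to 17.6 FPKM (median 8.01) with the guides and at 0.506, 0.278 and 0.238 FPKM in mock, a log2 difference of 2.75 (SE 0.19, adjusted p = 2.1e-07). Fos, a subunit of AP-1, stood at 6.92 to 34.8 FPKM (median 10.7) with the guides and at 0.458, 0.656 and 2.48 FPKM in mock (2.58, SE 0.27, adjusted p = 1.3e-05), with e21.1 replicate 3 highest among the guide libraries and mock replicate 3 highest in mock. The groups did not overlap, which the naming rule required of Egr1 but not of Fos. The phosphatase genes Dusp5 (4.86 ± 0.909 FPKM with the guides and 1.67 ± 0.241 FPKM in mock) and Dusp6, which act back on ERK, differed by 1.12 (SE 0.11, adjusted p = 5.6e-06) and 0.89, and Ier5 by 1.41. Spry2 (-0.08), Spred1 (-0.17), Spred2 (-0.23) and Etv5 (0.19), also regulators or targets of the pathway, were not called. Against Renilla 10 members were higher with a median of 0.53; Renilla stood 0.14 above mock at the median, with 0 members called between the controls, and the difference between the comparisons was not tested. Jun, Jund and Ier2 were called against mock (log2 differences 1.09, 0.82 and 0.68; adjusted p = 0.012, 0.020 and 0.024) and not against Renilla (0.76, 0.53 and 0.48; adjusted p = 0.074, 0.13 and 0.11).

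Inflammatory genes of the NF-kB pathway rose in 9 of 16 members (56.2% called, beside 9.0% over all genes), with none lower. Their median was 0.65. Zfp36, which destabilises cytokine mRNAs, averaged 29.1 ± 6.77 FPKM with the guides and 10.9 ± 1.87 FPKM in mock (log2 difference 1.32, SE 0.14, adjusted p = 1.8e-05). Tnfaip3, the feedback inhibitor A20, averaged 3.21 ± 0.579 and 1.09 ± 0.12 FPKM (1.00, SE 0.11, adjusted p = 1.4e-05), and the cytokine gene Tnf 7.51 ± 1.94 and 3.25 ± 0.191 FPKM (0.97, SE 0.16, adjusted p = 8.0e-04). The subunit genes Nfkb1 (0.02), Nfkb2 (0.31) and Rel (0.34) were not called. Relb and Nfkbia were called against mock (0.58 and 0.43, adjusted p = 0.033 and 0.018) and not against Renilla (0.48 and 0.32, adjusted p = 0.070 and 0.067).

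Interferon-response genes were higher in 6 of 15 tested members (40%, median 0.28) and class I antigen presentation genes in 6 of 16 (37.5%, median 0.36). No member was lower in either list, and 9.0% were called over all genes. The interferon list held 30 genes, of which 15 were tested. Irf7 averaged 1.73 FPKM with the guides, 0.433 FPKM in Renilla and 0.577 FPKM in mock, and reached the filter's mean only through the guide libraries. The nucleic acid sensor gene Zbp1 differed by 1.42 (2.86 ± 0.769 FPKM with the guides and 0.419 ± 0.0517 FPKM in mock, adjusted p = 2.9e-06), and Ifi27l2a, an interferon-induced gene, by 2.01 (9.69 ± 3.1 and 1.59 ± 0.692 FPKM, adjusted p = 2.6e-05). The interferon-induced genes Ifit2 (0.11) and Oas1a (0.05) were not called. H2-T23, a nonclassical class I molecule, stood at 47.3 to 103 FPKM (median 60.2) with the guides and at 32.2, 30.3 and 31.3 FPKM in mock (1.01, SE 0.15, adjusted p = 4.0e-04). The classical molecules H2-D1 and H2-K1 and the light chain B2m rose by less (0.45, 0.43 and 0.46), and the proteasome genes Psmb8, Psmb9 and Psmb10 (0.30, 0.51 and 0.36) were not called. Reads of class I genes can be split between near-identical copies.

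**Figure D3:**
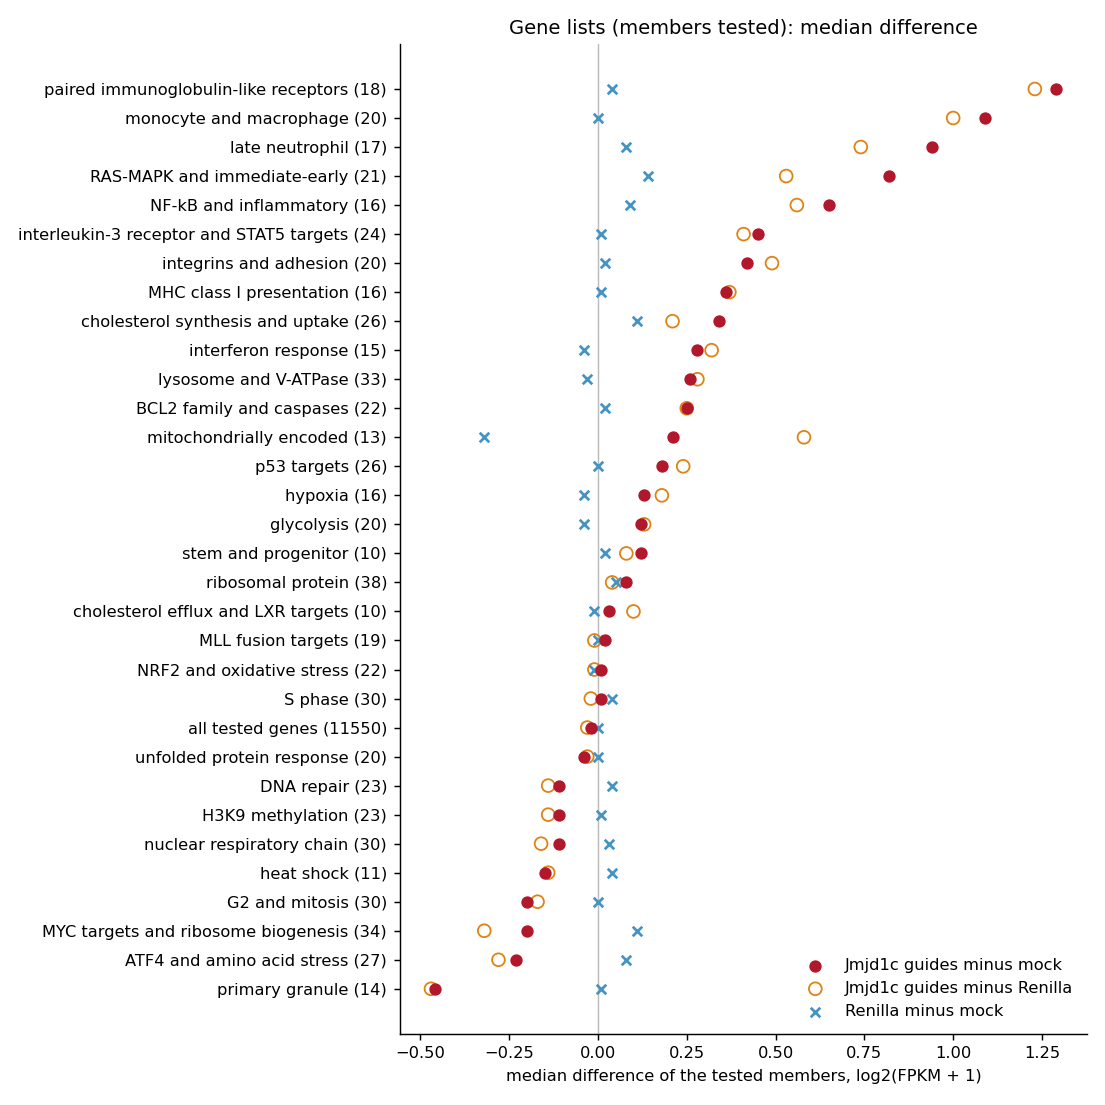
Median log2 difference of each gene list of at least 9 tested members, with the number tested in parentheses. Lists of other cell types are left out, and all tested genes are drawn as a further row. Symbols show Jmjd1c guides minus mock (filled circles), Jmjd1c guides minus Renilla (open circles) and Renilla minus mock (crosses). Filled circles run between -0.46 for primary granule genes and 1.29 for the receptor genes; crosses lie between -0.04 and 0.14, except the mitochondrially encoded genes at -0.32.

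Lysosomal genes rose in 15 of 33 members (45.5% called, beside 9.0% over all genes), with none lower and a median of 0.26. Besides Ctss, the protease genes Ctsc (152 ± 19.2 FPKM with the guides and 79.9 ± 7.19 FPKM in mock) and Ctsd (355 ± 32.2 and 234 ± 3.03 FPKM) differed by 0.91 (SE 0.09, adjusted p = 9.5e-06) and 0.60 (adjusted p = 4.1e-04). Tfeb, the transcription factor that drives lysosomal genes, stood at 8.40 to 15.0 FPKM (median 10.4) with the guides and at 5.61, 5.67 and 5.39 FPKM in mock, with no overlap (0.85, SE 0.11, adjusted p = 8.0e-05). Of the proton pump only the accessory subunit gene Atp6ap1 was called (0.26), while Atp6v1a (-0.07), Atp6v1h (-0.04) and Atp6v0d1 (-0.15) were not. Since Tfeb is known to bind the letters GTCACGTG in front of such genes, the promoters of 4 members are shown here, 3 that rose and 1 that did not. Each stretch is the 120 bases before the start site in the RefSeq promoter table (GRCm38.p6), read on the gene's own strand, with that motif on either strand in capitals: Ctsd at chr7:142387828-142387947 (minus strand), Lamp1 at chr8:13159041-13159160 (plus), Lgmn at chr12:102439093-102439212 (minus, 1 of 2 promoters in the table) and Mcoln1 at chr8:3500399-3500518 (plus).
Ctsd: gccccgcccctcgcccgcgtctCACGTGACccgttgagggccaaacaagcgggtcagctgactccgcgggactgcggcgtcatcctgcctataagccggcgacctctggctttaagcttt
Lamp1: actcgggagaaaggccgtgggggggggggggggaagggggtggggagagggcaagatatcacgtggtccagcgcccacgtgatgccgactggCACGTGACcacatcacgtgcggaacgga
Lgmn: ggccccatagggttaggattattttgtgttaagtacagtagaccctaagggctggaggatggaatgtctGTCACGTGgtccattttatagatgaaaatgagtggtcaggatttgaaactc
Mcoln1: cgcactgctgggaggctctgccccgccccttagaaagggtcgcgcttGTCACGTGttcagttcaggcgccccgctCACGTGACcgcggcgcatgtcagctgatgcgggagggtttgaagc

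In these promoters the motif lay 98 bases before the start of Ctsd (and again at 245, outside the stretch), 28 before Lamp1, 51 before Lgmn, and 73 and 45 before Mcoln1. Lamp1, a lysosomal membrane protein gene (239 ± 18.6 FPKM with the guides and 200 ± 1.54 FPKM in mock, log2 difference 0.25, adjusted p = 0.029), and Lgmn, the protease legumain (1.38 ± 0.66 and 0.253 ± 0.0893 FPKM, 0.89, adjusted p = 0.0024), rose. Mcoln1, the calcium channel of the lysosome, did not pass the test (17.4 ± 1.48 and 18 ± 1.28 FPKM, -0.05, adjusted p = 0.83). The motif stood within 250 bases before 6 of 34 promoters of the list (17.6%) and 607 of 32851 promoters in the table (1.85%). The 34 promoters belonged to 26 of the 33 tested genes. As the motif is known from such genes, its share describes the list and not the guides. The other genes that held it, Ctsa (0.22) and Glb1 (0.12), were not called. This motif was 1 of 11 searched on both strands, all chosen with the results in view. The palindrome TCACGTGA, which overlaps it, was in 11.8% of the lysosomal promoters and 0.785% of all. The sterol elements TCACNCCAC and, overlapping it, TCACNCNAC were in 5.26% and 10.5% of promoters of the cholesterol list and 1.05% and 2.26% of all, and the antioxidant element TGACNNNGC in 26.1% of the NRF2 list and 10.2% of all. The STAT site TTCNNNGAA was in 8.0% of the interleukin-3 list and 7.02% of all, the E-box CACGTG in 2.86% of the MYC list and 6.02% of all, and the PU.1 site GAGGAAGT in 5.56% of the monocyte list and 2.44% of all. In the RAS-MAPK list the AP-1 site TGACTCA and the serum response element were in 0.00% (4.46% and 0.0609% of all), and the GC box CCGCCC in 72.2% (32.7% of all). A match describes letters in the window and shows no binding.

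Integrins and adhesion genes were higher in 8 of 20 members and lower in 1 (45% called, beside 9.0% over all genes). Itgb7, an integrin beta chain, stood at 33.3 to 146 FPKM (median 88.0) with the guides and at 17.7, 26.0 and 22.3 FPKM in mock (log2 difference 1.90, SE 0.25, adjusted p = 1.1e-04). Itgb3 averaged 22.3 ± 5.49 FPKM with the guides and 5.86 ± 0.236 FPKM in mock (1.72, SE 0.20, adjusted p = 2.9e-05), and Selplg, the selectin ligand gene, 138 ± 14.6 and 74.3 ± 4.66 FPKM (0.88, SE 0.09, adjusted p = 7.0e-06). Itgam, the CD11b chain of myeloid maturation, averaged 86.3 ± 19.5 and 56.7 ± 1.56 FPKM and was not called against mock (0.56, adjusted p = 0.10), whereas against Renilla it was (0.73, adjusted p = 0.026). Itgb1 was the member that fell (-0.22, adjusted p = 0.024), a call lost without any one of the mock libraries. Without the 2 outlying libraries, 14 members were higher.

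Shares called differed among the lists of the damage response and of cell death. The p53 target list had 8 of 26 members higher (30.8% called, beside 9.0% over all genes), none lower, and a median of 0.18. Cdkn1a, the cyclin-dependent kinase inhibitor p21, stood at 104 to 157 FPKM (median 135) with the guides and at 67.3, 70.2 and 69.1 FPKM in mock, with no overlap (log2 difference 0.92, SE 0.10, adjusted p = 1.9e-05). Trp53inp1, Fas and Btg2, which act in cell death or growth arrest, differed by 1.13, 0.81 and 0.77, while the p53 targets Bax (0.26), Sesn2 (-0.08) and Phlda3 (0.77) were not called, and the list's count fell to 5 without mock replicate 2 or 3. None of 23 DNA repair genes was called by limma; 2 had an unadjusted p under 0.05, Atr (-0.23) and Mre11a (-0.32), and 1 was called without e20.1 replicate 1 or 2. Among survival and death genes, 9 of 22 were higher (40.9% called) and none was lower, with a median of 0.25. They were on both sides of the balance: the protective Mcl1 (89.3 ± 7.15 FPKM with the guides and 63.8 ± 1.83 FPKM in mock, 0.48), Bcl2 (0.55) and Bcl2a1d (0.98) and the death-promoting Bmf (0.87) and Bcl2l11 (0.59).

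Ribosome biogenesis and MYC target genes were lower in 5 of 34 members (Wdr12, Tcof1, Polr1a, Mybbp1a and Wdr43) and higher in none, with a median of -0.20. These made 14.7% of the list, beside 9.0% called and 2.16% called lower over all genes. Wdr12, a factor of large-subunit assembly, stood at 51.2 to 75.8 FPKM (median 67.2) with the guides and at 94.1, 90.8 and 95.9 FPKM in mock, with no overlap (log2 difference -0.52, SE 0.10, adjusted p = 0.0032). Myc itself was at 107 ± 18.9 FPKM with the guides and 105 ± 6.7 FPKM in mock (0.00, SE 0.13). Against Renilla the count was 10, beside 3.21% called lower over all genes. Renilla stood 0.11 above mock at the median. By library, the list's median over mock was 0.21 in Renilla replicate 1 and 0.04 and 0.02 in replicates 2 and 3. Against mock the count was 9 without the 2 outlying libraries, 2 without any one mock library, and 3 without e12.4 replicate 1, e12.4 replicate 3 or e20.1 replicate 3. None of 30 S-phase genes (median 0.01), 30 mitotic genes (median -0.20) and 38 ribosomal protein genes (median 0.08) was called by limma, with 1, 7 and 0 at an unadjusted p under 0.05. Without the 2 outlying libraries 11 of the 30 mitotic genes were lower, and 1 was without e12.3 replicate 3, e12.4 replicate 1 or e12.4 replicate 3 alone.

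Among the genes that MLL fusions keep active, Hoxa9 (92.4 ± 10.9 FPKM with the guides and 90.7 ± 5.75 FPKM in mock), Meis1 (34.8 ± 2.2 and 35.0 ± 2.52 FPKM) and Myb (196 ± 36.9 and 231 ± 22.4 FPKM) were not called, with log2 differences of 0.02, -0.01 and -0.26 and standard errors of 0.13, 0.08 and 0.17. Bcl2 and Cpeb2 (14.8 ± 3.66 and 7.69 ± 0.132 FPKM, 0.82, adjusted p = 0.015) were the 2 of 19 called (10.5%, beside 9.0% over all genes), both higher, and the call of Cpeb2 was lost without any one mock library. In the stem and progenitor list of 10, Cd93 (91.7 ± 18.3 and 54.3 ± 4.65 FPKM) and Runx1 (32.9 ± 5.17 and 21.5 ± 3.12 FPKM) rose and Muc13 (8.91 ± 1.91 and 15.2 ± 0.814 FPKM) fell. These made 30% of the list, beside 9.0% called over all genes. Only 1 of Cd93 and Runx1 remained called without mock replicate 1, 2 or 3. Of 23 genes that write, erase or read H3K9 methylation, 2 were called (8.7%, beside 9.0% over all genes): Kdm7a, a demethylase gene (4.97 ± 1.38 and 2.26 ± 0.324 FPKM, 0.85, adjusted p = 0.0015), rose and Suv39h2, a methyltransferase gene (9.63 ± 0.967 FPKM with the guides and 13, 11.3 and 12.6 FPKM in mock, -0.33, adjusted p = 0.012), fell. The call of Suv39h2 was lost without mock replicate 1 or 3.

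The count of cholesterol genes depended on which libraries entered. With all libraries, 6 of 26 genes of synthesis and uptake were higher than in mock (23.1% called, beside 9.0% over all genes). Among them were Mvd, Fdft1, Sc5d, Msmo1 and Sqle. No member was lower, and the list's median was 0.34. Against Renilla 3 were higher (Mvd, Fdft1 and Sc5d) with a median of 0.21. Mvd, which makes isopentenyl diphosphate, stood at 34.7 to 78.7 FPKM (median 61.4) with the guides, at 43.6, 30.7 and 35.4 FPKM in Renilla, and at 34.6, 34.7 and 33.3 FPKM in mock. It overlapped with Renilla but not with mock, where e12.3 replicate 3 came closest (log2 difference to mock 0.75, SE 0.16, adjusted p = 0.0060). Fdft1, the squalene synthase gene, averaged 39.8 ± 6.82 FPKM with the guides and 25.8 ± 0.135 FPKM in mock (0.58, SE 0.12, adjusted p = 0.0047). The sterol oxidase genes Msmo1 and Sqle were called against mock (0.64 and 0.43, adjusted p = 0.021 and 0.042) and not against Renilla (adjusted p = 0.13 and 0.14), where replicate 1 held 97.3 FPKM of Msmo1 and the other 2 held 57.2 and 63.7. By library, the list's median over mock was 0.24 to 0.78 in 10 guide libraries, -0.22 in e21.1 replicate 3 and -0.28 in e12.3 replicate 3. It was 0.32 in Renilla replicate 1 and -0.09 and 0.06 in the other Renilla libraries. Without the 2 outlying guide libraries, 15 genes were higher (median 0.46). The count was 10 without e12.3 replicate 3 alone, and 3, 3 and 2 without mock replicate 1, 2 or 3.

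ATF4 and amino acid stress genes split in the same libraries. Their median over mock was -0.39 to -0.21 in 10 guide libraries, 0.03 in e21.1 replicate 3 and 0.42 in e12.3 replicate 3. Asns, asparagine synthetase, shows it: these stood at 249 and 297 FPKM, the other 10 guide libraries between 119 and 195 FPKM, and mock at 181, 185 and 191 FPKM. With all libraries 1 of 27 genes was called (3.7%, beside 9.0% over all genes). It was Shmt2 of serine metabolism, which was lower (271 ± 20 FPKM with the guides and 324 ± 31.1 FPKM in mock, -0.26, adjusted p = 0.027). Without these 2 libraries 16 were lower, with a median of -0.29. The count was 8 and 3 without e12.3 replicate 3 or e21.1 replicate 3 alone, 2 without e20.1 replicate 2 or 3, and 0 without mock replicate 2 or 3.

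**Figure D4:**
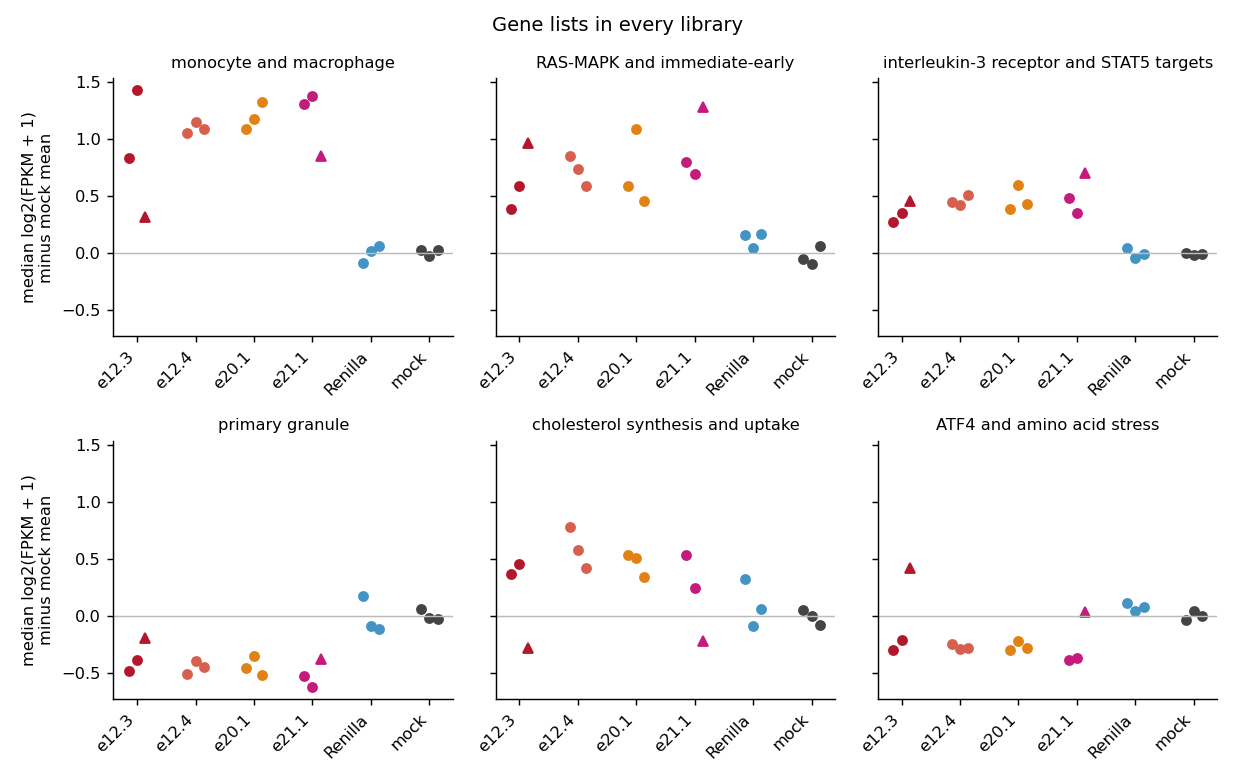
Median over the members of 6 gene lists of log2(FPKM + 1) minus the mock mean, 1 point per library, with triangles for the 2 outlying libraries. In the cholesterol and ATF4 panels the triangles lie on the other side of mock, or at it, from the other 10 guide libraries, while in the monocyte, RAS-MAPK, interleukin-3 and granule panels all 12 lie on one side.

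Other metabolic and stress lists were called in 0% to 20% of members, beside 9.0% over all genes. The heme oxygenase gene Hmox1 stood at 10.8 to 29.6 FPKM (median 21.3) with the guides and at 3.48, 4.90 and 4.62 FPKM in mock, with no overlap (1.95, SE 0.23, adjusted p = 3.5e-05). It was 1 of 4 NRF2 genes of 22 that rose (18.2%), with Nqo1 (0.63), Gclm (0.29) and Nfe2l2 (0.31). Of these, Nqo1 and Gclm were not called against Renilla (0.38 and 0.10, adjusted p = 0.13 and 0.40), and 1 of the 4 remained without mock replicate 1 or 2. The glucose transporter genes Slc2a1 (47.2 ± 4.26 FPKM with the guides and 33.7 ± 1.73 FPKM in mock, 0.47, adjusted p = 0.0012) and Slc2a3 (12.6 ± 9.61 and 2.13 ± 0.0335 FPKM, 1.89, adjusted p = 0.0060) rose, as did 1 further glycolysis gene of 20 (15% called in all), Pkm (0.22, adjusted p = 0.049), whose call was lost under 18 alternatives. Ndrg1, a hypoxia-induced gene, rose (14.3 ± 4.41 and 4.15 ± 0.789 FPKM, 1.54, adjusted p = 2.9e-05), and with Slc2a1 it made 2 of 16 hypoxia genes (12.5%). The hypoxia list's median over mock was 0.79 in e21.1 replicate 3 and 0.65 in e12.3 replicate 3, and -0.15 to 0.09 in the other 10 guide libraries. Without these 2 libraries 3 members were higher and 1 was lower, with a median of -0.02. The glycolysis median was 0.26 and 0.42 in these libraries, in the same order, and 0.01 to 0.11 in the others. The sterol exporter gene Abcg1 (0.75, adjusted p = 3.4e-04) and the lipase gene Lpl (0.71, adjusted p = 0.0012) were the 2 of 10 efflux and LXR genes that rose (20%). Of 20 unfolded protein genes 1 rose, Edem1 (0.45), a call lost without mock replicate 1 or 3. None of 11 heat shock genes was called (median -0.15), with 0 at an unadjusted p under 0.05. Of 30 nuclear respiratory chain genes 2 were lower, Uqcrc1 (-0.32) and Ndufs1 (-0.26); neither was called without mock replicate 1 or 2, and the call of Ndufs1 was lost under 19 alternatives.

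For the 13 mitochondrially encoded genes the median difference between guides and mock was 0.21 with no gene called, whereas against Renilla it was 0.58 with mt-Nd1 and mt-Nd2 called higher. Between the controls, Renilla was lower at the median (a difference of -0.32), with 0 genes called. For mt-Nd2, guide libraries stood at 1420 to 1890 FPKM (median 1610), Renilla at 450, 1250 and 1310 FPKM and mock at 1580, 991 and 1260 FPKM. Renilla replicate 1 was the lowest of all libraries, and guides and mock overlapped.

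Across all genes the controls did not differ by the test: Renilla against mock gave 0 genes at a limma adjusted p under 0.05 (0.00%), and 127 (1.10%) at an unadjusted p under 0.05. By that threshold 578 would be called if no gene differed. With 3 libraries each and fewer low p-values than that, 0 calls does not show that the controls are alike. Guides against Renilla gave 1268 genes (11%), 897 higher and 371 lower (7.77% and 3.21%). Of the 1040 genes called against mock, 40 had an unadjusted p of at least 0.05 against Renilla, 23 of them higher and 17 lower. These 40 were selected on both p-values, so the gap between the comparisons is a description and carries no test. Both comparisons share the 12 guide libraries.

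Among the higher of these genes at a mean of at least 5 FPKM, Hist2h2aa2, an H2A histone gene, stood at 8.01 to 32.5 FPKM (mean 14.4) with the guides, at 11.2, 7.14 and 8.25 FPKM in Renilla and at 4.01, 5.05 and 6.76 FPKM in mock. Renilla thus overlapped the guides and lay above mock (log2 difference of guides to mock 1.2, SE 0.29, adjusted p = 0.015), and e21.1 replicate 3 and e12.3 replicate 3 were the highest libraries at 32.5 and 23.4 FPKM. The call was lost without mock replicate 1 or 2, and histone genes have near-identical copies. Irx5, an Iroquois homeobox transcription factor gene, stood at 22.4 to 31.7 FPKM (median 24.9) with the guides, at 24.5, 21.2 and 22.8 FPKM in Renilla and at 18.7, 18.4 and 18.4 FPKM in mock (0.44, SE 0.09, adjusted p = 0.0030). Its mock libraries were lower than all 15 others, and its call held without any single library. Ptms (parathymosin, 0.80), Glul (glutamine synthetase, 0.52), Inpp1 (an inositol phosphatase, 0.47) and Fam162a (0.43) followed. Each of these calls was lost without any one of the mock libraries. In the same order, the calls were lost under 9, 18, 13 and 18 alternatives, some of which left out guide libraries. For Ptms and Glul, Renilla replicate 1 stood at 13.6 and 22 FPKM, and the other Renilla libraries at 6.24 to 12 FPKM.

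The lower genes found with mock had small differences. The call of Ogfod1, a prolyl hydroxylase of the ribosome (-0.40), was lost without mock replicate 2 (adjusted p = 0.053), and that of Adam3 (-0.46) without mock replicate 3 (adjusted p = 0.093). Atxn3, a deubiquitinase (-0.50), Zfp668, a zinc finger protein (-0.49), and Pus10, a pseudouridine synthase (-0.46), lost their calls without 2 or 3 of the single mock libraries. For Ogfod1, guides averaged 14.6 ± 1.85 FPKM, Renilla libraries stood at 15.4, 17.0 and 17.3 FPKM and mock at 19.5, 19.6 and 19.4 FPKM, so the narrow spread of mock lay beside both other groups.

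**Figure D5:**
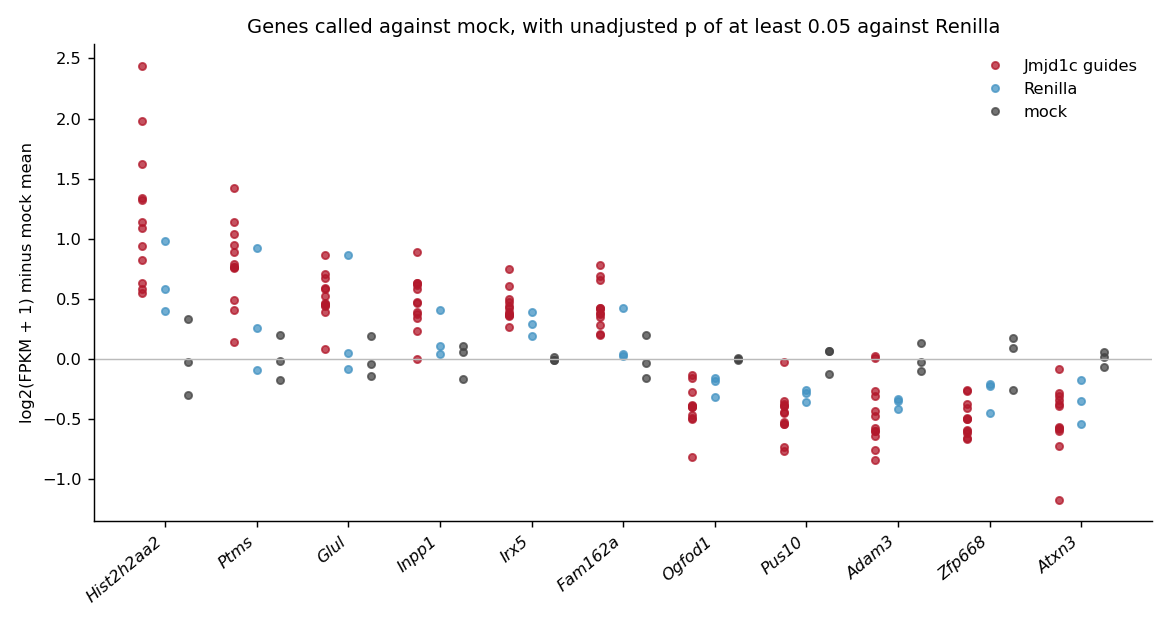
log2(FPKM + 1) minus the mock mean of genes called against mock with an unadjusted p of at least 0.05 against Renilla, 1 point per library: Jmjd1c guides, Renilla and mock, left to right. Mock points of Irx5 (18.4 to 18.7 FPKM) and Ogfod1 (19.4 to 19.6 FPKM) lie close together, and Renilla points of Irx5 (21.2 to 24.5 FPKM) all lie above its mock points.

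Among markers of other cell types, dendritic genes were higher in 3 of 4 tested members (Cd74, Id2 and Itgax, 75%, beside 9.0% called over all genes). Only 4 of 15 listed genes passed the filter of a mean of 1 FPKM. Cd74, Id2 and Itgax averaged 0.438, 0.648 and 0.209 FPKM in mock and 0.945, 0.731 and 0.223 FPKM in Renilla. They passed through the guide libraries, so the filter favoured this share. The summed level of all 15 was 43.5 to 78.5 FPKM over the guide libraries, 25.3 to 37.7 FPKM in Renilla and 25.7 to 29.1 FPKM in mock. Cd74, the invariant chain, stood at 0.744 and 0.437 FPKM in e21.1 replicate 3 and e12.3 replicate 3, at 5.06 to 11.3 FPKM in the other 10 guide libraries, and at 0.491, 0.531 and 0.291 FPKM in mock, and 1 dendritic call remained without any one mock library. Mast cell, basophil and eosinophil genes summed to 59.9 to 141 FPKM with the guides and 153 to 164 FPKM in mock, with 1 of 9 lower (11.1%; Ms4a2, -0.50) and 0 without any one mock library. Stromal and endothelial genes had 1 of 6 higher (16.7%; Pecam1), 3 without e12.3 replicate 3 and 0 without mock replicate 3. Of 2 megakaryocyte genes, Itgb3 was higher (50%) and Itga2b was not called (-0.07, adjusted p = 0.95); none of 3 erythroid and 2 lymphoid genes was called. The part of these genes in the results above was not tested.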

How the data were processed

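The authors deposited FPKM values for 23899 genes in 18 libraries, made from poly(A) RNA (TRIzol, NEBNext Ultra II Directional), per the labels' protocols. The submitters' processing notes name bcl2fastq 2.22.0.422, Salmon 0.13.0, DESeq2 1.22.1, R 3.5.3 and mm10. Each of 15 separate tables (none for mock) matched its column of the series table within 3.3e-06 FPKM. As FPKM are not counts, limma-trend (limma 3.58.1, R 4.3.3) was fitted to log2(FPKM + 1) of the 11550 genes whose mean FPKM was 1 or more, with 6 group means and no covariates, and p-values were adjusted by Benjamini-Hochberg over all of them. A gene is called at an adjusted p under 0.05; the script was tested on simulated data. Depth was estimated from FPKM steps in 1473 single-transcript genes of at least 2000 bases; 90.2 to 94.4% of low values came within 10% of a whole read, and depth limits only the lowest genes. Coordinates are from GENCODE vM21 (GRCm38), which held 98.92% of the symbols.

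The 37 gene lists, the comparison and the rule for named genes were chosen with earlier results of these data known. Shares called are of tested members, such as 20 of 30 monocyte, 17 of 21 late neutrophil, 15 of 30 interferon and 4 of 15 dendritic genes. The rule took up to 10 called genes per direction with the largest change, a mean of at least 5 FPKM and no overlap between 12 guide and 3 mock libraries; up to 6 per direction of the same mean FPKM called against mock with an unadjusted p of at least 0.05 against Renilla; up to 4 per list by p; and 14 fixed genes. Clone names were skipped. Other list members are named as examples, chosen after their values were seen. Alternatives are given in the closing section. Python 3.11.15, numpy 2.4.6, pandas 2.3.3 and matplotlib 3.10.9 made tables, promoter matches and figures. Some genes that the rule names are not reported here.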

Additional observations from a re-analysis of the deposited data

How the results depend on the processing

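The limits of this comparison include its 3 mock libraries, shared by every guide, and the 2 guide libraries that stand apart on principal component 2. It also leans on guide e12.4, without which 717 genes were called (605 higher, 112 lower). Without e12.3, e20.1 or e21.1 the count was 1258, 1036 and 931. Calls lost without e12.4 included those of Polr1a, Mybbp1a, Suv39h2, Runx1 and Shmt2. Of 171 named genes 109 were called, and 72 of these kept call and direction under all 31 alternatives; 37 lost the call under at least 1, and 44 uncalled genes gained one. The count of 1040 (76% higher) became 3493 with array quality weights (1812 higher, 51.9%), 1878 without the 2 outlying guide libraries (1149 higher, 61.2%), 2109 with Renilla and mock together as the control (1268 higher, 60.1%), and 2993 without 4 libraries that stand apart (1598 higher, 53.4%), the last chosen after seeing the data; the cause was not tested. The 4 were e12.3 replicate 3, e21.1 replicate 3, e20.1 replicate 2 and Renilla replicate 1. Leaving out single libraries gave 580 to 1273 genes for the guides together, 172 to 340 for e12.3 (340 with all), 442 to 486 for e12.4 (748), 348 to 547 for e20.1 (614) and 517 to 741 for e21.1 (839), with fewer samples in each fit. Array weights gave 1182 genes for e12.3, 3506 for e12.4, 2246 for e20.1 and 1961 for e21.1. Renilla against mock gave 1 gene with no filter, 6 with array weights, and 0 without any one library. The F-test among guides gave 3 without the 2 libraries, 6 with array weights and 3 without the 4 libraries. Itga2b, not called with all libraries (-0.07), was called higher at 0.34 without the 2 libraries (adjusted p = 0.039) and without the 4 (0.34, adjusted p = 0.037). With the replicate block the count was 1460 for the guides together, 421, 1076, 905 and 1186 for the single guides in the order above; pairs of libraries with the same number correlated at -0.25 to 0.76 in their deviations from group means (median 0.12, 26 of 45 above 0.1), and pairs with different numbers at -0.58 to 0.37 (median -0.04, 11 of 90 above 0.1). Not every same-numbered pair was above 0.1, and the labels do not say that a number marks a shared culture or day. Jmjd1c ranged between -0.27 and -0.17 with single libraries left out. Upper-quartile factors were 0.985 to 1.055, and no scaling moved the median of all genes by over 0.1.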
